A study of Xenopus laevis with 24 samples.

Results

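In gastrula embryos of the frog *Xenopus laevis*, 13 of 31306 deposited transcript records were low with vehicle and higher in every TTNPB library than in any vehicle library. Records named for hox or gbx genes had been left out. The 13 were chosen by the deposited values themselves, as records averaging 2 FPKM or more in the 8 TTNPB libraries and 1 FPKM or less in the 8 vehicle libraries, with a lowest TTNPB value above the highest vehicle value. Their vehicle means ran from 0 to 0.999 FPKM, so not all were silent. A vehicle mean of 1 FPKM or less was held by 11869 of all 31306 records. FPKM is a level scaled to transcript length and to the fragments mapped in a library. All 3 conditions came from the comparison of TTNPB with vehicle, so for the 13 records that comparison is a description and carries no test. The tests between clutches use the same libraries and are limited by the rule. In all, 19 records met the conditions, and the 6 removed by name were hox records.

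The embryos were exposed in dishes of 25 from cleavage stages to TTNPB at 1 µM, to AGN193109 at 1 µM or to vehicle, which was 0.1% ethanol. TTNPB is a synthetic retinoid that activates retinoic acid receptors, and AGN193109 is an inverse agonist that lowers their activity. Each library was made from a pool of 5 whole embryos at stage 10.5, with 8 libraries per exposure, 4 of clutch E and 4 of clutch D. Libraries of a clutch come from sibling embryos that may have shared a dish, so the p-values here weigh differences against the spread between such pools, which may be technical. The median FPKM over the 19635 records that average 1 FPKM or more ran from 4.23 to 5.76 in 23 libraries and was 2.77 in AGN193109 replicate 4E, which stood apart. The deposited table gives FPKM with no read counts, so the depth behind each value is unknown and no counting interval was computed. In the list of gastrula layer markers, 16 of 20 genes were matched to a record and every one of their 18 records passed the filter, among them *tbxt* of the mesoderm at 122 ± 21.7 FPKM with TTNPB, 141 ± 30.3 with AGN193109 and 130 ± 24.4 with vehicle (SD, n = 8 each). Of those 18 records 1 was called with TTNPB, where 0.83% of the 19635 records were called. It was *lhx1* of the organizer, at 23.9 ± 5.40 FPKM with TTNPB (limma, adjusted p = 0.00492 against vehicle). It stood at 13.4 ± 5.53 with AGN193109 and 12.2 ± 2.42 with vehicle. The other organizer records, *gsc*, *nog* and *chrd*, averaged lower with TTNPB than with vehicle and were not called. They averaged 5.81, 2.14 and 58.9 FPKM with TTNPB, against 9.13, 2.625 and 65.4 with vehicle. Among markers of differentiated tissue, 3 of 12 genes were matched, to 5 records. The 2 records of the muscle gene *tnnt3* averaged 0.823 and 0.146 FPKM with TTNPB, 0.998 and 0.391 with AGN193109 and 1.29 and 0.168 with vehicle. Alpha globin was listed at 0 in every library and the 2 serum albumin records stayed under 0.04 FPKM on average in every exposure.

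Retinoic acid receptors (RARs) sit on DNA as heterodimers with retinoid X receptors. Without ligand they recruit corepressors that keep target genes quiet. An agonist exchanges corepressors for coactivators, and an inverse agonist strengthens corepressor binding. In the early vertebrate embryo this pathway is best known for switching on anterior hox genes and the gene of the retinoic acid-degrading enzyme *cyp26a1*, and for patterning the hindbrain and trunk.

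Most of the 13 records carried no gene name. Only 3 were described by a gene or protein, Kielin, SH2 domain containing 3C (*sh2d3c*) and peripherin, 3 were described as hypothetical proteins with a number (MGC131069, MGC131119 and MGC81163), and 7 were end reads of cDNA clones, 4 from the 3′ end and 3 from the 5′ end. End reads of clones made up 53.8% of the 13 records and 63.3% of all 31306 records. They made up 93% of the 43 records, names applied in the same way, that met both mean conditions but whose TTNPB and vehicle ranges overlapped. None of the 7 clones and 3 numbered proteins was matched to a gene by the files or by the RefSeq gene table, so whether any of them come from 1 shared gene is unknown. No other record in the table was matched to Kielin or *sh2d3c*, and the 1 other description that holds the word peripherin names rds/peripherin, a photoreceptor membrane protein of another family. No sequence of these records was used here.

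**Figure D1:**
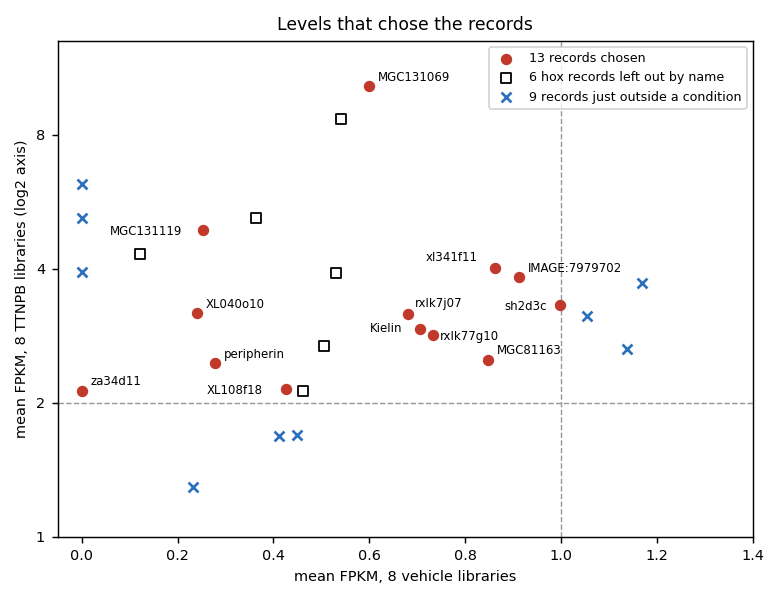
Mean FPKM in the 8 TTNPB libraries (vertical axis, log2 spacing) against mean FPKM in the 8 vehicle libraries (horizontal axis) for the 13 records, the 6 hox records left out by name and 9 records just outside 1 of the conditions. The dashed lines stand at 2 and 1 FPKM, and MGC131069 at 10.3 FPKM with TTNPB lies highest.

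The record described as hypothetical protein MGC131069 reached the highest level with TTNPB. It stood at 8.57, 14.9, 12.9 and 9.30 FPKM in TTNPB clutch E libraries 1 to 4 and at 9.89, 5.45, 10.2 and 11.1 FPKM in TTNPB clutch D libraries 1 to 4. With AGN193109 it lay between 0 and 0.478 FPKM, and with vehicle between 0.284 and 0.938 FPKM. Its lowest TTNPB library was therefore 4.51 FPKM above its highest vehicle library, the widest gap among the 13 records. The means were 10.3 ± 2.83 FPKM with TTNPB, 0.231 ± 0.182 with AGN193109 and 0.600 ± 0.207 with vehicle (SD, n = 8 each), a ratio of 17.1 between TTNPB and vehicle. On the scale of log2(FPKM + 1) used for every log2 value here, which understates changes of low records, TTNPB minus vehicle was 2.78. In whole-embryo pools a higher level can come from more cells with the transcript or from more transcript per cell, and the 2 cannot be told apart.

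MGC131119, the second hypothetical protein, was second in level. In TTNPB libraries it stood at 2.84, 6.84, 2.03 and 6.34 FPKM in clutch E and at 6.32, 2.99, 7.18 and 4.58 FPKM in clutch D. AGN193109 libraries lay between 0 and 0.588 FPKM and vehicle libraries between 0 and 0.586 FPKM. The TTNPB mean of 4.89 ± 2.05 FPKM was 19.3 times the vehicle mean of 0.254 ± 0.194 FPKM, the largest such ratio among the 12 records with any signal in vehicle. The values with TTNPB were scattered, with the highest library 3.55 times the lowest and both clutches holding high and low libraries.

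*sh2d3c*, also called SH2 domain containing 3C, encodes an adaptor protein that links receptor tyrosine kinase signalling to Cas scaffold proteins and cell migration in mammals. It stood at 3.67, 4.29, 3.40 and 3.69 FPKM in TTNPB clutch E libraries and at 3.23, 2.84, 2.46 and 2.95 FPKM in TTNPB clutch D libraries. AGN193109 libraries ran from 0.233 to 1.01 FPKM and vehicle libraries from 0.751 to 1.18 FPKM. It was the steadiest of the 13 records with TTNPB, with a standard deviation of 17.4% of the mean, against 26.6% to 68.3% in the others. It also had the most signal with vehicle, 0.999 ± 0.171 FPKM, which puts it at the very edge of the condition of at most 1 FPKM. The TTNPB mean was 3.32 times the vehicle mean, and TTNPB minus vehicle was 1.10 on the log2 scale.

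Kielin is a secreted protein with chordin-like cysteine-rich repeats, first described in the midline of *Xenopus* embryos, and its relatives modulate BMP and TGF-β signalling. With TTNPB its record stood at 4.22, 4.20, 4.09 and 3.67 FPKM in clutch E and at 1.92, 1.68, 1.499 and 2.17 FPKM in clutch D. With AGN193109 it ran from 0.341 to 0.692 FPKM, and with vehicle from 0.292 to 1.13 FPKM. TTNPB libraries of clutch E were all higher than those of clutch D. The means over both clutches were 2.93 ± 1.22 FPKM with TTNPB, 0.473 ± 0.138 with AGN193109 and 0.707 ± 0.338 with vehicle (SD, n = 8 each). The ratio between TTNPB and vehicle was 4.15, and TTNPB minus vehicle was 1.17 on the log2 scale.

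Peripherin is an intermediate filament protein of neurons, known in vertebrates from peripheral and sensory neurons. Its record stood at 2.57, 3.84, 3.18 and 2.21 FPKM in TTNPB clutch E libraries and at 1.66, 2.14, 2.46 and 1.54 FPKM in TTNPB clutch D libraries. AGN193109 libraries lay between 0.0813 and 0.508 FPKM and vehicle libraries between 0 and 0.531 FPKM. The TTNPB mean of 2.45 ± 0.763 FPKM was 8.79 times the vehicle mean of 0.279 ± 0.176 FPKM, and TTNPB minus vehicle was 1.41 on the log2 scale. Its mean over the 24 libraries was 0.984 FPKM, just under the filter of 1 FPKM, so it was tested only in the fit with no filter. There it differed by -0.06 ± 0.11 between AGN193109 and vehicle (SE; limma, adjusted p = 0.930) and by 0.41 ± 0.15 between clutch E and clutch D with TTNPB (limma, adjusted p = 0.143). The rule used the vehicle and TTNPB values of this record, so neither comparison is independent of it.

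The third numbered protein, MGC81163, had the smallest log2 difference of the 13, 0.88, and a ratio of 2.945 between the TTNPB and vehicle means. Its TTNPB libraries ran from 1.42 to 4.91 FPKM with a median of 2.13 FPKM. AGN193109 libraries ran from 0.461 to 2.24 FPKM and vehicle libraries from 0.272 to 1.20 FPKM. One AGN193109 library, replicate 2E, thus lay above 4 of the 8 TTNPB libraries.

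**Figure D2:**
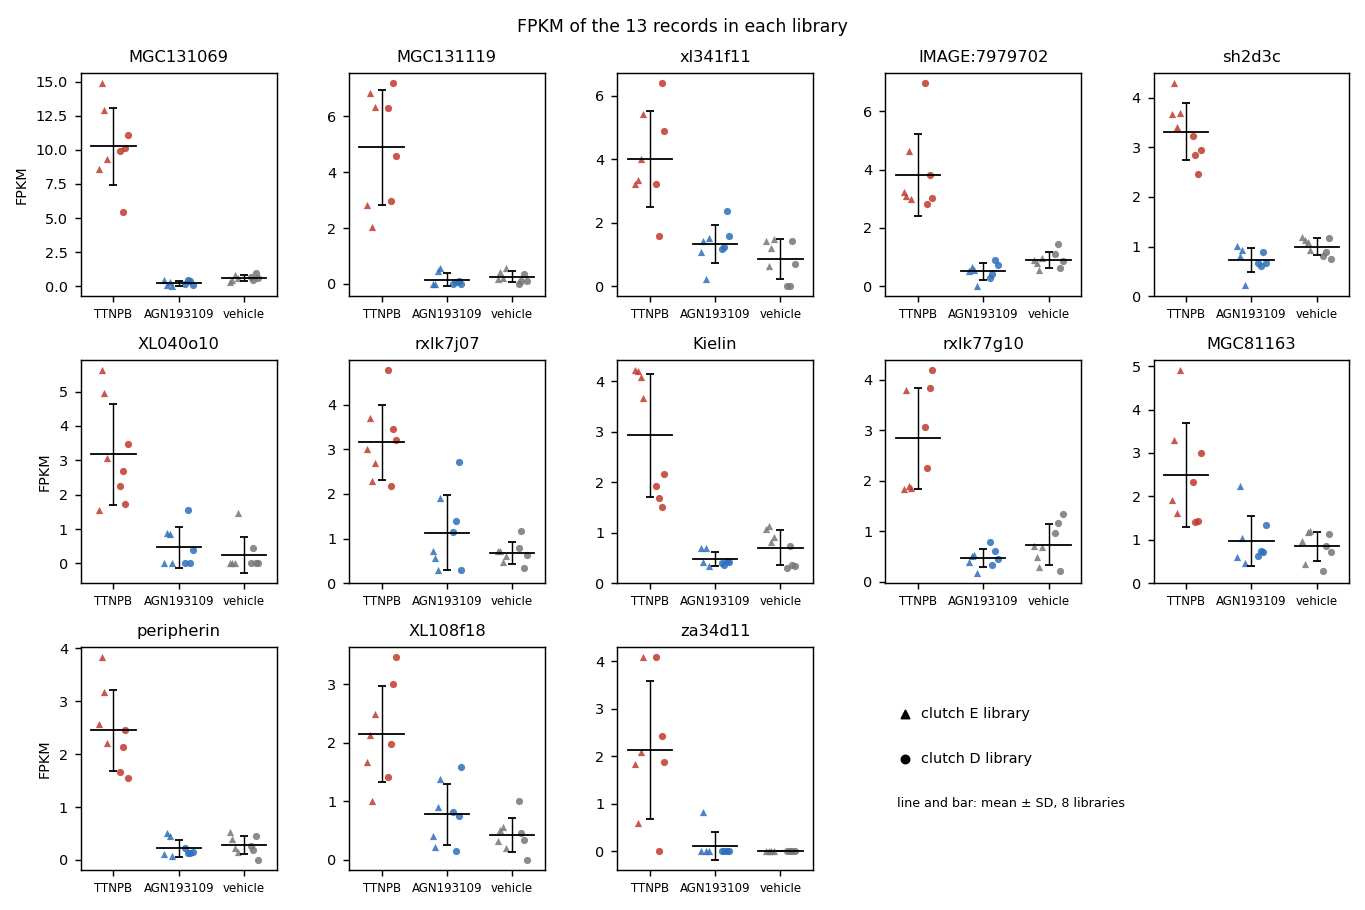
FPKM of each of the 13 records (1 panel each, vertical axes in FPKM on their own scale) in TTNPB, AGN193109 and vehicle libraries, with clutch E as triangles and clutch D as circles and the mean ± SD of 8 libraries in black. Every TTNPB value exceeds every vehicle value, as the rule requires, and Kielin with TTNPB splits into a high clutch E and a low clutch D. The gap is too small to read off for za34d11 (7.6e-22 FPKM) and XL108f18 (0.0059 FPKM).

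Among the 7 clone end reads, TTNPB means ran from 2.13 to 4.01 FPKM and vehicle means from 0 to 0.912 FPKM. The clones IMAGE:7979702, rxlk7j07 and rxlk77g10 had TTNPB ranges of 2.82 to 6.96, 2.17 to 4.77 and 1.84 to 4.19 FPKM, and vehicle ranges of 0.570 to 1.45, 0.342 to 1.17 and 0.217 to 1.35 FPKM. Clone xl341f11 ran from 1.59 to 6.40 FPKM with TTNPB, from 0.228 to 2.36 with AGN193109 and from 0 to 1.48 with vehicle. Its ranges with TTNPB and vehicle were apart by 0.109 FPKM only.

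The remaining 3 clones met the rule by narrow margins. Clone XL040o10 held 1.55 to 5.62 FPKM with TTNPB and was under 0.01 FPKM in 6 of 8 vehicle libraries, but vehicle replicate 4E reached 1.48 FPKM. Clone XL108f18 had a lowest TTNPB value of 1.01 FPKM and a highest vehicle value of 0.999 FPKM. Clone za34d11 was listed at 0 in all 8 vehicle libraries, and TTNPB replicate 2D passed only because an estimate of 7.6e-22 FPKM, which is no measurable signal, exceeds 0. In its other 7 TTNPB libraries it held between 0.601 and 4.09 FPKM.

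The records on the other side of each condition were close by. Just past the limit of 1 FPKM with vehicle lay clones IMAGE:6951578 and XL013k18 and hypothetical protein LOC100101306, with vehicle means of 1.06, 1.14 and 1.17 FPKM, while *sh2d3c*, IMAGE:7979702 and xl341f11 were just inside at 0.999, 0.912 and 0.861 FPKM. Just under 2 FPKM with TTNPB lay the XlHbox1 record, a hox gene product that the name filter does not catch, at 1.69 FPKM, the record of fms-related tyrosine kinase 1, a receptor for vascular endothelial growth factor, at 1.68 FPKM, and MGC84737 at 1.29 FPKM. Just inside were za34d11 at 2.13, XL108f18 at 2.15 and peripherin at 2.45 FPKM. Among records that met both mean conditions, those nearest to separation without reaching it were clones xl251m15, XL464j04ex and IMAGp998K0110939, each with a TTNPB library at 0 or at an estimate under 0.01 FPKM although their TTNPB means were 3.93, 5.19 and 6.19 FPKM. On the inner side za34d11, XL108f18 and XL040o10 had the smallest gaps.

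The AGN193109 libraries form a second set without agonist that the rule did not use. In 7 of the 13 records every TTNPB library also lay above every AGN193109 library, and the count was 7 without AGN193109 replicate 4E. These 7 were MGC131069, MGC131119, IMAGE:7979702, *sh2d3c*, Kielin, rxlk77g10 and peripherin. Over all 31306 records, 0.412% had every TTNPB library above every AGN193109 library and 0.367% had every TTNPB library above every vehicle library. Since the TTNPB libraries of the 13 were selected to be high, their share of 53.8% stands beside 83 of 115 (72.2%) among all records whose TTNPB libraries exceeded every vehicle library. The 6 hox records left out by name were apart from AGN193109 in 6 of 6 cases. Of the 6 records described by a protein name or number, 5 were apart, and of the 7 clone end reads 2 were. The matching shares by kind of description over all records were not computed, so these counts do not set the kinds apart.

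In the other 6 records the AGN193109 and TTNPB ranges overlapped. These were xl341f11, XL040o10, rxlk7j07, MGC81163, XL108f18 and za34d11. Clone rxlk7j07 reached 2.70 FPKM in AGN193109 replicate 3D and 1.91 FPKM in 4E, against a lowest TTNPB value of 2.17 FPKM and a highest vehicle value of 1.17 FPKM. XL108f18 reached 1.60 FPKM in AGN193109 replicate 4D, above 2 of its 8 TTNPB libraries. XL040o10 reached 1.56 FPKM in AGN193109 replicate 2D, against 1.55 FPKM in its lowest TTNPB library.

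The comparison of AGN193109 with vehicle bears on whether the low levels without added agonist move when receptor activity is lowered. Of the 13 records, 11 passed the filter on low values over the 24 libraries, mostly through the TTNPB libraries in which they were chosen to be high. When only AGN193109 and vehicle libraries set the filter, 1 record, xl341f11, passed it. Of the 11, 0 were called (limma, adjusted p under 0.05), where 0.0204% of all 19635 tested records were called. An unadjusted p under 0.05 (limma) was held by 2 of the 11, both lower with AGN193109, and by 1633 of all 19635. The count of 0 calls does not show that the levels were alike. With vehicle means of 1 FPKM or less, these records also had little room to fall. MGC131069 averaged 0.231 FPKM with AGN193109 and 0.600 FPKM with vehicle, a log2 difference of -0.38 ± 0.15 (SE; limma, adjusted p = 0.493). IMAGE:7979702 averaged 0.509 FPKM with AGN193109 and 0.912 FPKM with vehicle, a difference of -0.35 ± 0.15 (limma, adjusted p = 0.553). The ranges of both records overlapped between AGN193109 and vehicle. The vehicle libraries were also chosen to be low in these records, so this contrast is not independent of the rule.

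By direction, 7 of the 13 records were lower with AGN193109 than with vehicle and 6 were higher, and the counts were the same without AGN193109 replicate 4E. Clone za34d11, at 0 in all 8 vehicle libraries, could not be lower. XL040o10 had little room to be lower, being under 0.01 FPKM in 6 of 8 vehicle libraries. The 7 lower records were lower in both clutches and were the same 7 that stood apart from AGN193109 with TTNPB, and both counts use the same AGN193109 libraries. The differences ran from -0.38 for MGC131069 to 0.36 for xl341f11, with a median of -0.06 over the 13. Over all tested records the median was -0.03 and 56.1% were lower. Tested records average 1 FPKM or more and were not chosen to be low with vehicle, so this share is not matched to the 13. *sh2d3c* differed by -0.22 ± 0.11 (limma, adjusted p = 0.629), and Kielin by -0.19 ± 0.13 (adjusted p = 0.729). The summed FPKM of the 13 records was 47.6 ± 8.92 with TTNPB, 7.57 ± 1.38 with AGN193109 and 7.54 ± 1.19 with vehicle (SD, n = 8 each). AGN193109 and vehicle sums overlapped over nearly their whole range, from 5.97 to 9.95 and from 6.08 to 9.78.

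**Figure D3:**
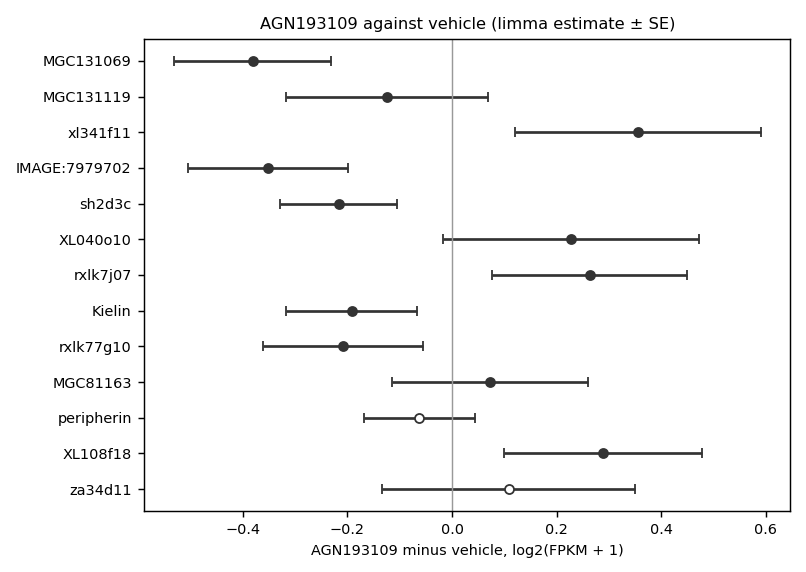
Difference between AGN193109 and vehicle on the log2(FPKM + 1) scale for each of the 13 records (limma estimate ± SE over 24 libraries). Filled points passed the filter on low values, open points (peripherin and za34d11) come from the fit with no filter, and none passed the threshold, the most negative estimate being -0.38 for MGC131069.

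**Figure D4:**
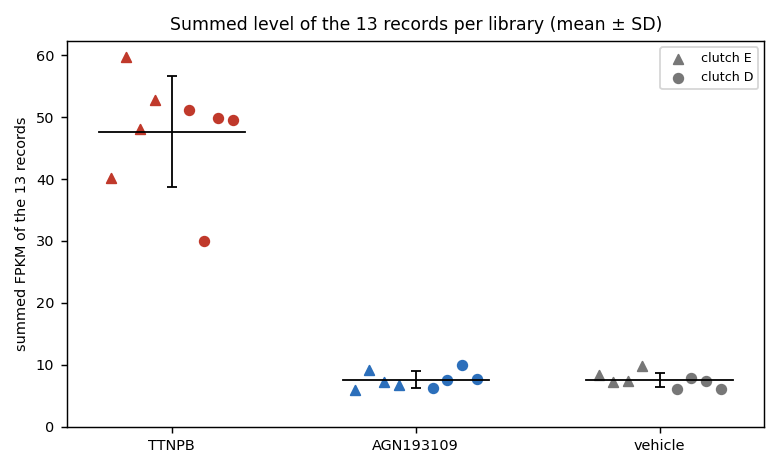
Summed FPKM of the 13 records in each library, with clutch E as triangles and clutch D as circles and the mean ± SD of 8 libraries per exposure in black. The TTNPB libraries run from 30.03 to 59.7, with replicate 2D lowest, while AGN193109 and vehicle libraries all lie under 10.

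The level reached with TTNPB was compared between sibships. Clutch was not named in the rule, but the rule used these TTNPB libraries. It required those of both clutches to exceed every vehicle library, which limits the clutch differences that could remain. The records tested also passed the filter mostly through these libraries. Of the 11 records tested, Kielin alone was called, higher in clutch E, where 5.26% of all tested records were called. Without AGN193109 replicate 4E, 3022 of 19668 tested records were called, and of the 12 chosen records then tested again Kielin alone. With TTNPB Kielin averaged 4.05 ± 0.257 FPKM in clutch E and 1.82 ± 0.291 FPKM in clutch D (SD, n = 4 each), a log2 difference of 0.85 ± 0.15 (SE; limma, adjusted p = 0.00137) with no overlap. Over all tested records the median of this contrast was -0.12, with 205 higher and 827 lower. With upper-quartile scaling the median moved to 0.02, with 660 higher and 585 lower, and the Kielin difference was 0.97.

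Kielin was also higher in clutch E with vehicle, at 0.985 ± 0.140 FPKM in clutch E and 0.429 ± 0.201 FPKM in clutch D (SD, n = 4 each), without overlap and with no test of that pair. How many of all records were apart between clutches in this way was not counted. With AGN193109 it averaged 0.537 ± 0.181 FPKM in clutch E and 0.409 ± 0.0282 FPKM in clutch D, and these ranges overlapped. TTNPB minus vehicle for Kielin was 1.35 in clutch E and 0.98 in clutch D on the log2 scale. The test of that difference between clutches gave 0.36 ± 0.21 (limma, adjusted p near 1, unadjusted p = 0.0993), which did not pass. With 0.1 in place of 1 added to FPKM before the log, the difference was 0.03, so its size rested on that setting.

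Of the 11 records tested, 0 were called for a response to TTNPB that differed between clutches, as were 0% of the 19635 tested records (limma), with 0 of the 11 and 509 of all at an unadjusted p under 0.05. This test used the TTNPB and vehicle values of the rule, which left out beforehand any record that responded in 1 clutch alone. In simulated data it found 12 of 100 planted log2 changes of 1. The 0 calls therefore do not show that the clutches responded alike. Of the other 10 records tested for level with TTNPB, 5 were higher in clutch E and 5 in clutch D, none past the threshold. *sh2d3c* ran from 3.40 to 4.29 FPKM in clutch E and from 2.46 to 3.23 FPKM in clutch D without overlap, a difference of 0.30 ± 0.16 that did not pass (limma, adjusted p = 0.309). The share of all records with such ranges apart between clutches was not counted. Clone rxlk77g10 differed most in the other direction, by -0.39 ± 0.22 (limma, adjusted p = 0.348).

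**Figure D5:**
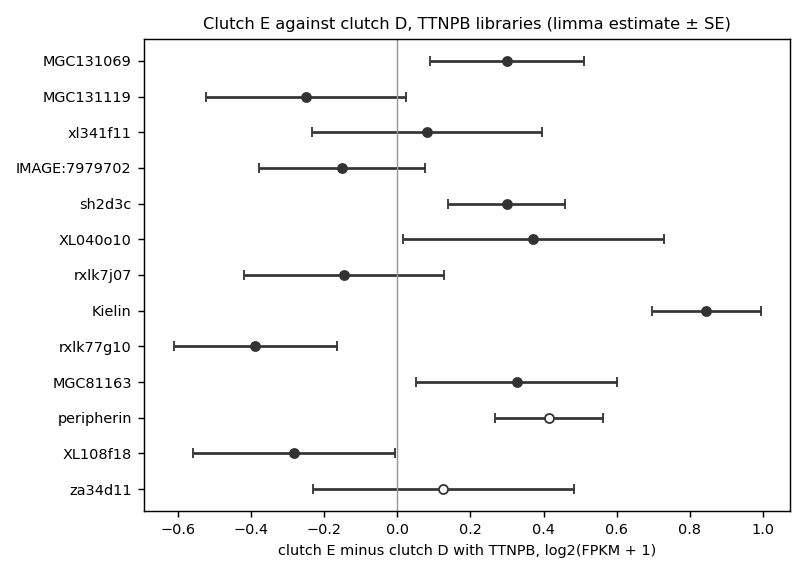
Difference between clutch E and clutch D among TTNPB libraries on the log2(FPKM + 1) scale for each of the 13 records (limma estimate ± SE). Filled points passed the filter on low values and open points come from the fit with no filter. Kielin at 0.85 is the only record past the threshold.

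The TTNPB libraries differed in how strongly they carried the 13 records. Replicate 2D was the lowest TTNPB library in 6 of the 13, among them MGC131069, xl341f11 and IMAGE:7979702. Another of the 6 was za34d11, where 2D held an estimate of 7.6e-22 FPKM. The rule chose these records by their TTNPB values, and how often 2D was lowest among other records was not counted. Its summed level of 30.03 FPKM, of which MGC131069 held 5.45, compared with 40.1 to 59.7 FPKM in the other 7. It was the highest TTNPB library in none, while replicate 2E was highest in 4 and held the largest sum. In 2D *cyp26a1* was the lowest of the TTNPB libraries, at 205 FPKM against 209 to 278 FPKM in the others. Replicate 3D was close to it at 209 FPKM, yet its summed level of the 13 records was 49.9 FPKM. The median FPKM over tested records in 2D was 5.12, within the range of 4.66 to 5.65 over the TTNPB libraries.

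In the list of retinoid metabolism, binding and receptor genes, 15 of 34 genes were matched to 17 records and 11 records were tested. With TTNPB 3 rose and 0 fell, where 0.83% of all tested records were called, and the list median was 0.17 beside 0.01 over all tested records. The risers were both records of *cyp26a1* and *rara*, the gene of RAR alpha. The first *cyp26a1* record averaged 239 ± 24.6 FPKM with TTNPB, 8.48 ± 2.84 with AGN193109 and 26.01 ± 6.04 with vehicle. With AGN193109 both *cyp26a1* records fell and no other record of the list was called. *rarb*, the gene of RAR beta, stood at 0.668 ± 0.458 FPKM with TTNPB, 0.647 ± 0.728 with AGN193109 and 0.827 ± 0.866 with vehicle, and *cyp26b1*, of a second retinoic acid-degrading enzyme, stayed under 0.07 FPKM in every mean.

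In the list of non-hox transcription factor genes known to respond to retinoids, 20 of 36 genes were matched to 27 records, of which 20 were tested. With TTNPB 6 rose and 1 fell, with a list median of 0.24. Both lists were drawn up with earlier results of these data known, so their direction is no independent evidence. Among the risers were both *znf703* records (log2 differences of 1.99 ± 0.20 and 1.63 ± 0.26, SE), of a zinc finger repressor gene, *nr6a1* (1.84 ± 0.22), an orphan nuclear receptor gene, *meis3* (1.78 ± 0.16), a hox cofactor gene of the hindbrain, and *cdx4* (1.12 ± 0.14), a posterior caudal gene. *hesx1*, a repressor gene of the anterior neural plate, was the 1 record that fell (-1.004 ± 0.21), and it is named here after its values were seen. With AGN193109 none of the 20 was called, where 4 of all tested records were (limma; 1633 of all tested records had an unadjusted p under 0.05).

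The 6 risers of that list and *rara* all averaged more than 2 FPKM with vehicle, above the limit of 1 FPKM in the rule. Among the untested records of the list, *pax6*, a homeobox gene of eye and neural development, stood at 0.780 ± 0.409 FPKM with TTNPB, 0.170 ± 0.0946 with AGN193109 and 0.274 ± 0.128 with vehicle, and was singled out after its values were seen. The 6 hox records left out by name averaged from 2.12 FPKM (homeobox C5) to 8.67 FPKM (Hoxa2b) with TTNPB, where the 13 averaged from 2.13 to 10.3 FPKM. With AGN193109 and vehicle they lay between 0.0658 and 0.579 FPKM and between 0.121 and 0.541 FPKM on average.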

How the data were processed

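RNA was measured in 24 libraries, 8 per exposure. The labels' protocols describe cDNA amplified from RNA with a NuGEN Ovation kit and SOLiD libraries. The authors deposited FPKM per GenBank record, and TopHat, Bowtie and Cufflinks are named in the submitters' processing notes. Versions, the reference used and the filters are not given in the sources used here. Reads may be split between near-identical records, whose levels are then uncertain.

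Exposure came from the labels, clutch and library number from the sample titles. The 13 records, gene lists and tests were chosen with earlier results of these data known. Values were log2(FPKM + 1), the 19635 records averaging 1 FPKM or more in 24 libraries were tested, and of the 13 records peripherin and za34d11 missed that filter. AGN193109 and TTNPB were each set against vehicle in 1 limma 3.58.1 fit (R 4.3.3, trended empirical Bayes) with exposure and clutch as terms. Clutch E against D with TTNPB, and the difference in response between clutches, were contrasts of the 6 means of exposure and clutch. Benjamini-Hochberg adjustment covered every tested record, and calls were made at 0.05. The fits were tested on simulated data, with changes planted only in records of higher average log2 level than any of the 13. All planted changes were rises. Planted log2 changes of 1 were found in 91 of 100 records for AGN193109 against vehicle. That count does not apply to falls of the 13, whose vehicle means of 1 FPKM or less leave little room to fall. For clutch with TTNPB 45 of 100 were found, and for the difference in response 12 of 100. With planted log2 changes of 2 the counts were 99, 93 and 81 of 100. List genes were matched by description or by NCBI gene number in the RefSeq table of Xenopus_laevis_v10.1, and no coordinates or sequences were taken from it. By rule, every record with a gene name was described, with the values of all libraries for named genes, the 3 records on each side of each condition, and list genes past the threshold. One list gene past the threshold is not reported here.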

Additional observations from a re-analysis of the deposited data

Results flagged for a closer look

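Among 39 groups of 8 libraries (13 records in 3 exposures), 3 held a library far from the others by Dixon's test. In normally distributed groups not chosen by their values, chance flags about 1 in 20, or 1.95 of 39. That number is no yardstick here, since the rule chose the TTNPB and vehicle values and some groups lie mostly at 0. IMAGE:7979702 stood at 6.96 FPKM in TTNPB replicate 1D, against 2.82 to 4.63 FPKM in the other 7 TTNPB libraries. XL040o10 stood at 1.48 FPKM in vehicle replicate 4E, where the other 7 vehicle libraries reached at most 0.446 FPKM. The clone za34d11 stood at 0.821 FPKM in AGN193109 replicate 2E, while the other 7 AGN193109 libraries were at 0 or at an estimate under 0.01 FPKM.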

How the results depend on the processing

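The number of records chosen rested on the limits. A vehicle mean of at most 0.5 FPKM left 5 records and a TTNPB mean of at least 3 FPKM left 7, all among the 13. Applied to clutch D alone the rule found 34 records and to clutch E alone 35, each holding 10 of the 13. Ranges of 4 libraries against 4 are more easily apart, but the cause of the larger numbers was not tested. Clutch D alone lost peripherin, IMAGE:7979702 and Kielin, and clutch E alone lost xl341f11, XL108f18 and *sh2d3c*. Upper-quartile scaling and quantile normalization left the same number, 9, and lost xl341f11, XL040o10, *sh2d3c* and MGC81163. Without each library in turn there were 12 to 15. *sh2d3c* was lost without vehicle replicate 1D, 2D, 4D or 4E, za34d11 without TTNPB replicate 1D or 4E, and XL108f18 without TTNPB replicate 4D.

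Among the records of the 13 that each alternative tested, 0 were called for AGN193109 against vehicle under 33 alternatives and 0 for the difference in response between clutches under 30. Those tested numbered 10 to 13 of the 13, but 1 for AGN193109 with only the 2 groups compared. Kielin was called between clutches in all 31, with log2 differences from 0.79 to 1.12 and adjusted p up to 0.0357. Under AGN193109, xl341f11 turned to -0.13 in clutch E alone, and MGC81163 ranged from -0.027 to 0.145 as each library was left out, below 0 without AGN193109 replicate 2E; the cause was not tested. Same-numbered libraries of AGN193109 and vehicle, or of TTNPB and vehicle, did not deviate together (correlations from -0.115 to 0.0379 and from -0.0671 to 0.0356). With the replicate block 0 of the 11 records tested were called for AGN193109, 1 for clutch and 0 for the difference in response.

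Counts over all tested records moved more. For AGN193109 against vehicle 4 were called, 16 without AGN193109 replicate 4E, 7 without vehicle replicate 4D, 2 with a pseudocount of 0.1 or with only the 2 groups compared, and 1 in clutch E alone. For TTNPB against vehicle 163 were called, and 302 without AGN193109 replicate 4E. For clutch with TTNPB 1032 were called, 3022 without AGN193109 replicate 4E, 2364 with only the TTNPB libraries, and 544 to 679 without TTNPB replicate 1D, 2D, 3D, 1E, 3E or 4E. For the difference in response 0 were called, 2 with no filter and 3 without TTNPB replicate 4D. The number of fragments behind each level is unknown.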
